A study of Homo sapiens with 10 samples.

Results

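The comparison described here is that of untreated HAP1 cells lacking OGG1 with untreated wild type (WT) HAP1 cells, over every gene that could be tested. It uses 4 of the 10 libraries of the study: OGG1 knockout clones 1 and 22, and WT clones 11 and 2. The libraries were chosen by their genotype labels, and 17881 of the 59453 genes in the count table had enough reads to be tested. HAP1 is a near-haploid human line that was derived from the leukaemia line KBM-7. Each library came from 1 separate clone, and all cells were grown in the same serum-containing medium in atmospheric oxygen. No agent was given to these cells. The remaining libraries came from 2 clones lacking MUTYH, 2 clones lacking both glycosylases (double knockout, DKO) and the WT clones after H2O2, the last of which are not used here. The DKO clones were made from 1 of the OGG1 knockout lines, and which of the labels 1 and 22 that line carries is not stated in the sources used here.

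OGG1 is the DNA glycosylase that recognises 8-oxoguanine opposite cytosine, cuts out the oxidised base and opens the lesion to base excision repair. MUTYH acts later on the same lesion by removing an adenine that was placed opposite 8-oxoguanine during replication. Both OGG1 knockout clones were made with CRISPR-Cas9 and the same guide RNA, which is shown because it fixes where the gene was cut. In the line that follows the 20 bases of the guide are in lower case, 5′ to 3′, and the capitals mark the adjacent PAM read from the GRCh38 reference.
OGG1 guide and PAM: gtacgatgccccatgcgcctGGG
The 20 bases matched chromosome 3 once, on the minus strand at chr3:9750311-9750330. OGG1 lies on the plus strand, and the site covers bases 25 to 44 of its coding sequence, in codons 9 to 15 of exon 1 of the canonical GENCODE transcript.

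The transcript of OGG1 itself was low in 1 of the knockout clones only. Clone 1 held 27 reads of OGG1 and clone 22 held 254, against 295 in WT clone 11 and 275 in WT clone 2. As CPM, the counts of a gene scaled to the normalised size of the library, these were 1.23, 11.2, 13.1 and 12.2 CPM. The log2 fold change was -1.02 ± 0.76 (SE) and did not pass the test. A small deletion in the coding sequence need not change the amount of transcript, so the level in clone 22 does not check its label either way. The study reports that it verified the knockout at the protein level, by targeted mass spectrometry, in every clone. TADA3, a chromatin adaptor gene that overlaps OGG1 on the opposite strand, held 68.7 and 70.4 CPM in the knockout and 69.8 and 61.7 CPM in WT.

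The libraries were alike in depth, with 22225091 to 22458937 counts in the 8 untreated libraries. Mitochondrial genes took 6.59% of the counts in OGG1 clone 1, 4.38% in OGG1 clone 22, 5.14% in WT clone 11 and 5.02% in WT clone 2. A level of 1 CPM corresponds to 22.2 counts, so that the coefficient of variation from counting is 21.2% there. In bulk cells, fewer cells that express a gene and less RNA of it per cell cannot be told apart.

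A differentially expressed gene (DEG) was one with an unadjusted P of at most 0.05 in edgeR's quasi-likelihood test and a change of more than 2-fold, or log2 1, in either direction. By this rule 299 of the 17881 genes (1.67%) were DEGs, of which 145 (0.811%) were higher and 154 (0.861%) lower in the OGG1 knockout. Without the fold change criterion 490 genes (2.74%) passed the unadjusted P of 0.05. After Benjamini-Hochberg adjustment 0 genes passed in edgeR, where the smallest adjusted p was 0.999, and 12 passed in the Wald test of DESeq2. The words rose and fell below mean the DEG rule, and higher or lower in both pairs means only the sign. In a fit with the library set as a block, which is described with the methods, 2.43% of the genes were DEGs (1.26% higher). Rather few of the DEGs were abundant, since 59 had a mean of at least 10 CPM in either group and 63 a mean under 1 CPM in both.

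OGG1 clone 1 with WT clone 11, and OGG1 clone 22 with WT clone 2, form matched pairs that share no library. The pairing was not in the labels but came from an earlier description of these data. Across genes the differences within the pairs were weakly related (Pearson r = 0.161 and Spearman rho = 0.119 over 17881 genes, which are not independent replicates). Clone 1 differed from WT clone 11 by over log2 1 in 735 genes, and clone 22 differed from WT clone 2 in 1783. Both pairs moved that far the same way in 234 genes (1.31%), of which 100 were higher (0.559%) and 134 lower (0.749%), and in opposite ways in 132 genes. Among the 299 DEGs, 138 were beyond log2 1 in both pairs, 139 only in the pair of clone 22 and 21 only in that of clone 1.

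**Figure D1:**
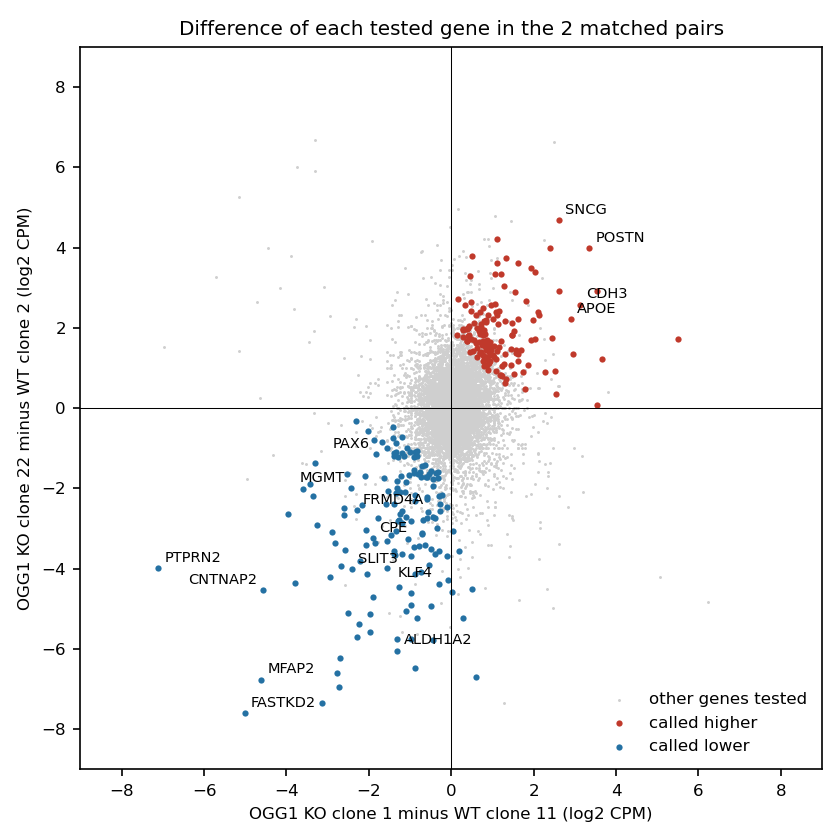
Each point is a tested gene, with the log2 CPM difference of OGG1 knockout clone 1 minus WT clone 11 on the horizontal axis and of clone 22 minus WT clone 2 on the vertical axis. The 145 genes called higher are red and the 154 called lower are blue. Most called genes lie farther from 0 on the vertical than on the horizontal axis, and genes such as POSTN, SNCG, FASTKD2 and PTPRN2 are far from 0 on both.

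WT clone 2 stood apart in many of the lower genes. Of the 154 genes called lower, 82 were at least 2-fold higher in WT clone 2 than in WT clone 11, and 6 were at least 2-fold higher in WT clone 11. Without WT clone 2 the count of DEGs fell from 299 to 139, of which 81 were among the 299, and without WT clone 11 it was 671. Of the 89 named genes that were DEGs, 27 stayed so whichever of the 4 libraries was left out, and 50 were no longer called without WT clone 2.

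The leading genes, which had the smallest P of those that went the same way in both pairs, are described first. FRMD4A, a scaffold protein of cell polarity on chromosome 10 (chr10:13643706-14462142), had the smallest P of the leading genes. It held 1.28 and 1.02 CPM in OGG1 clones 1 and 22 against 6.64 and 6.39 CPM in WT clones 11 and 2. The clones of a group were close and the groups well apart, with a log2 fold change of -2.50 ± 0.31 (SE; edgeR adjusted p = 0.999).

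CPE, the carboxypeptidase that trims hormone and neuropeptide precursors (chr4:165361194-165498547), was the most abundant of the 12 leading genes that fell. It was at 6.99 and 4.16 CPM in the knockout clones and 26.1 and 40.1 CPM in the WT clones, a log2 fold change of -2.57 ± 0.47. SLIT3, a secreted ligand of ROBO receptors (chr5:168661740-169301139), fell from 4.99 and 6.34 CPM to 0.868 and 0.31 CPM, with a log2 fold change of -3.26 ± 0.58. ZDHHC15, a palmitoyltransferase on the X chromosome, fell by a log2 fold change of -2.03 ± 0.36. In all of these each knockout clone lay below each WT clone, as in 12.3% of all genes tested. Each of these was called without any 1 of the 4 libraries.

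FASTKD2 had the lowest level in the knockout of the 12 leading genes that fell. This gene of a mitochondrial RNA-binding protein of the FASTK family (chr2:206765357-206796189) had 0 and 2 reads in OGG1 clones 1 and 22. WT clone 11 had 63 reads and WT clone 2 had 780, so the WT clones differed from each other by more than 10-fold as well. The MUTYH knockout clones were at 0 and 0 CPM and the DKO clones at 0.181 and 0.176 CPM, so the low level was not particular to the OGG1 knockout. The other leading genes that fell were CSMD1, a membrane protein with complement control domains, PLXDC2, KY, EFR3B, PAK3, PAX6 and AL713852.1. EFR3B, which anchors a lipid kinase at the plasma membrane, and the kinase PAK3 were the smallest of these changes, at -1.27 ± 0.28 and -1.05 ± 0.25 on the log2 scale.

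Among the leading genes that rose, QPRT and SERINC2 were the most abundant. QPRT, the enzyme that turns quinolinate into an NAD precursor (chr16:29663279-29698699), was at 49.5 and 50.8 CPM in the knockout clones and 29 and 15.9 CPM in the WT clones. Its log2 fold change was 1.16 ± 0.28, and it was not called without WT clone 2. The MUTYH knockout clones were at 44.5 and 39.8 CPM, so a level above both WT clones was not particular to the OGG1 knockout. SERINC2, a membrane protein of the serine incorporator family, was at 14.9 and 20.1 CPM against 7.75 and 8.92 CPM.

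The other leading genes that rose were less abundant. CADPS, which primes dense-core vesicles for release, was at 3.97 and 4.65 CPM in the knockout and 0.98 and 1.38 CPM in WT, a log2 fold change of 1.87 ± 0.48. It was called without any 1 of the libraries. SNCG, the gene of gamma-synuclein, had 10 and 76 reads in OGG1 clones 1 and 22 and 0 and 1 in WT clones 11 and 2, too few in WT for a fold. S100A16, a calcium-binding protein, was at 0.776 and 2.39 CPM against 0.312 and 0.0444 CPM. The remaining ones were the proton channel HVCN1, the G-protein regulator RGS3, INHBE, and the transcripts LINC01750, AC126773.4 and VLDLR-AS1. VLDLR-AS1 lies antisense to VLDLR, and since the strand setting of the counting is not stated its reads may belong to either.

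**Figure D2:**
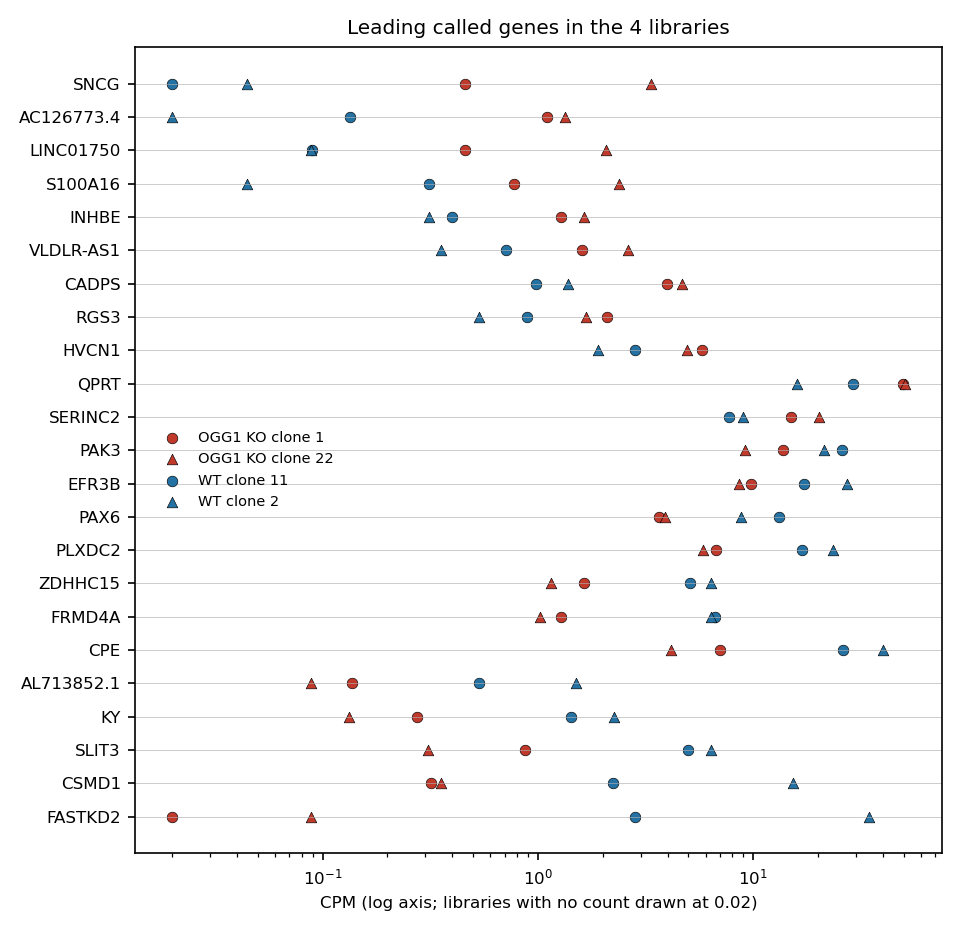
CPM of 23 leading genes in each of the 4 libraries on a log axis, with OGG1 knockout clones in red and WT clones in blue, circles for OGG1 clone 1 and WT clone 11 and triangles for OGG1 clone 22 and WT clone 2. In each gene both red points lie on the same side of both blue points, and FASTKD2 and CSMD1 show WT clone 2 well above WT clone 11. The rule that picked the genes favours such separation. The groups did not overlap in 287 of the 299 DEGs and in 25.0% of all genes tested.

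Of the DNA repair genes on these lists, 1 passed the test. Over all genes 1.67% were DEGs, so here and below a count of 0 does not set a short list apart from all genes. Of the 10 tested base excision glycosylases 0 were DEGs, and their median log2 fold change was 0.065 beside 0.015 over all genes tested. Of the 15 genes that act after the glycosylase 0 were DEGs. APEX1, the endonuclease that cuts the abasic site, was at 210 and 209 CPM in the knockout and 221 and 230 CPM in WT. PARP1, the sensor of strand breaks, was at 638 and 656 CPM against 687 and 940 CPM, with WT clone 2 the highest.

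The list counts were also 0 among 8 genes of the nucleotide pool, 20 of nucleotide excision repair, 8 of mismatch repair and 25 of double-strand break repair. In edgeR no member of these lists passed, and no member was beyond log2 1 in both pairs either. Of the 3 genes of direct reversal 1 fell (33.3% beside 0.861% of all genes), MGMT, the methyltransferase that reverses O6-methylguanine. MGMT (chr10:129467190-129770983) held 0.776 and 0.752 CPM in OGG1 clones 1 and 22 against 4.59 and 3.28 CPM in WT clones 11 and 2. Its log2 fold change was -2.36 ± 0.57 (edgeR adjusted p = 0.999), it was past the adjusted threshold in the DESeq2 Wald test, and it was called whichever library was left out. MGMT was at 7.45 and 13.6 CPM in the MUTYH knockout clones and at 0.317 and 0.044 CPM in the DKO clones.

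The oxidative stress lists held 1 DEG. Of 19 tested NRF2 targets and 22 enzymes of peroxide and superoxide removal, 0 were DEGs. Their medians had opposite signs in the pairs, at -0.11 in clone 1 and 0.18 in clone 22 for the NRF2 targets. TXNRD1, the cytosolic thioredoxin reductase, was at 225 and 250 CPM in the knockout and 259 and 276 CPM in WT. GSTM2, a mu-class glutathione transferase, rose from 2.63 and 3.24 CPM to 4.98 and 7.61 CPM, a log2 fold change of 1.10 ± 0.32. GSTM2 has close paralogs, and how reads shared with them were counted is not stated. It was the 1 DEG of 13 glutathione transferases (7.69% beside 1.67% of all genes), of which 7 were higher and 1 lower in both pairs.

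Of 19 p53 targets 0 were DEGs, and AEN, the p53-induced nuclease, was at 270 and 163 CPM against 225 and 194 CPM. Of 16 genes of the ATF4 stress response 2 rose, 12.5% of the list beside 0.811% of all genes. Both code for secreted factors of the TGF-beta family. GDF15 held 19 and 30 reads in OGG1 clones 1 and 22 against 8 and 10 in WT clones 11 and 2. INHBE held 28 and 37 reads against 9 and 7, a log2 fold change of 2.02 ± 0.38. The median of the list was -0.081, with 5 members higher and 6 lower in both pairs. ATF4 itself was at 427 and 508 CPM in the knockout clones and 414 and 570 CPM in the WT clones.

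The lists of heat shock chaperones, endoplasmic reticulum chaperones, immediate early genes, NF-kappaB targets, interferon-stimulated genes and metallothioneins held 0 DEGs each. The 14 endoplasmic reticulum chaperones went opposite ways in the pairs, all of them, with a median of 0.20 in clone 1 and -0.26 in clone 22. HSP90B1, an abundant chaperone of that list, was at 942 CPM in OGG1 clone 22 against 947 CPM in WT clone 2, and both libraries of the other pair were above these levels.

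Among synaptic receptors and ion channels 8 of 100 tested genes fell and 0 rose. This was 8.00% of the list beside 0.861% of all genes. The median of the list was -0.046, and 28 of its members were higher and 30 lower in both pairs. The count of lower genes was 3 with OGG1 clone 22 left out, 3 with a minimum of 10 counts in every library and 15 without a filter. Without WT clone 11, 6 members were called higher and 9 lower. Without WT clone 2 it was 7, and 4 of the 8 were among them. Its count is a description, since the lists were drawn up with earlier results of these data known.

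KCNK2 and KCNK1, which code for background potassium channels, fell. KCNK2 (chr1:215005775-215237090) was at 10.6 and 10.2 CPM in the knockout and 24.7 and 33.4 CPM in WT. KCNK1 (chr1:233614106-233672514) was at 0.548 and 1.11 CPM against 4.86 and 21.9 CPM, a log2 fold change of -4.00 ± 1.06. GRIA2, an AMPA glutamate receptor subunit, fell from 7.44 and 8.08 CPM to 1.92 and 0.221 CPM. KCNK1 and GRIA2 were called without any 1 library, whereas KCNK2 was no longer called without OGG1 clone 1, OGG1 clone 22 or WT clone 2, with log2 fold changes from -1.51 to -1.25.

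KCNH5, GABRB2 and SYN3 were no longer called without WT clone 2. KCNH5, a voltage-gated potassium channel, had 183 reads in WT clone 2 and 5, 4 and 8 in the other libraries. GABRB2, a GABA receptor subunit, had 73 reads there and 1, 4 and 2 elsewhere, and its direction turned without WT clone 2 (log2 0.31). SYN3, a synapsin of synaptic vesicles, was at 7.58 and 9.6 CPM in the knockout and 15.5 and 30.5 CPM in WT. SCN2B and GABRR2, a sodium channel subunit and a GABA receptor subunit, had 16 reads or fewer in every library with the most in WT clone 11, and of the 4 fits that leave out a library they were called only in that without WT clone 2.

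Axon guidance genes showed 3 of 63 lower (4.76% beside 0.861% of all genes) and 0 higher, with a median of 0.032. The lower count was 8 without OGG1 clone 1 and 0 with a minimum of 10 counts in every library, and 5 members were called higher without WT clone 11. SEMA3A, a secreted repellent of growing axons (chr7:83955777-84492724), was at 0.776 and 0.0885 CPM in OGG1 clones 1 and 22 and 5.79 and 17.2 CPM in WT clones 11 and 2, a log2 fold change of -4.72 ± 1.17. EPHA6, an ephrin receptor, had 4 and 7 reads against 14 and 45. SLIT3 was the third of them. More members were higher than lower in both pairs, 26 against 13.

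The next 3 genes lie outside the naming rule and were chosen after their values were seen, because they fell. CNTNAP2, a neurexin-like adhesion protein, had 2 and 9 reads in OGG1 clones 1 and 22 and 94 and 254 in WT clones 11 and 2. CHL1, a close homolog of L1, had 6 and 5 against 125 and 42. PTPRN2, a protein of dense-core vesicles, had 0 and 3 reads against 278 and 78. In each of these 3 genes both WT clones lay above both knockout clones. That was so in 12.3% of all genes tested, and the groups did not overlap in 287 of the 299 DEGs. MUTYH knockout clone 8 lay above both OGG1 knockout clones in them, at 13.3, 13.3 and 9.07 CPM, whereas MUTYH knockout clone 7 was at 0.326, 1.21 and 0.186 CPM.

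Developmental transcription factors leaned lower without many passing the test. Of 164 tested factors 3 rose and 5 fell, 4.88% of the list beside 1.67% of all genes. The list median was -0.11 in the comparison, -0.088 in clone 1 against WT clone 11 and -0.18 in clone 22 against WT clone 2, and 67 members were lower and 36 higher in both pairs. With the library set as a block the counts were 4 and 11, with WT clone 2 left out 3 and 2, and with WT clone 11 left out 4 and 17.

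PAX6, a factor of eye and forebrain development (chr11:31784779-31817961), was the most abundant of those that fell. It was at 3.65 and 3.89 CPM in OGG1 clones 1 and 22 and 13.1 and 8.79 CPM in WT clones 11 and 2, a log2 fold change of -1.54 ± 0.37. In MUTYH knockout clones 7 and 8 PAX6 was at 2.93 and 4.01 CPM, so the low level was not particular to the OGG1 knockout. DKO clones 4 and 14 were at 4.76 and 8.57 CPM. PAX6 and IRX6 were called without any 1 library. IRX6, an Iroquois factor, had 3 and 2 reads in the knockout and 34 and 39 in WT. TWIST2, GATA6 and SIX2 fell with the highest level in WT clone 2 in each case. HOXD10 rose from 5 and 5 reads to 26 and 21, and PITX3 from 2 and 5 to 9 and 23. Of the 4 fits that leave out a library, HOXD10 was called in 1 and PITX3 in 2. HOXD10 was not called without WT clone 2. POU5F1 and SOX2, the most abundant members, did not pass, at log2 0.11 ± 0.20 and 0.27 ± 0.21.

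In the retinoic acid pathway 1 of 15 genes rose and 2 fell, whereas 0.811% of all genes rose and 0.861% fell. CRABP2, which carries retinoic acid to its receptors (chr1:156699606-156705816), rose from 9.71 and 7.5 CPM to 27.4 and 26.9 CPM, a log2 fold change of 1.66 ± 0.58. It was not called when any 1 of the 4 libraries was left out. ALDH1A2, the dehydrogenase that makes retinoic acid, was at 1.19 and 0.841 CPM in the knockout and 3.07 CPM in WT clone 11, but reached 61.5 CPM in WT clone 2. RARB, a retinoic acid receptor, had 101 reads in WT clone 2 and 9, 1 and 8 in WT clone 11 and OGG1 clones 1 and 22. The fall of the latter pair thus rested largely on WT clone 2, and neither was called without it.

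The same held for KLF4, a Krüppel-like pluripotency factor and the 1 DEG of 21 KLF and SP genes (4.76% beside 1.67% of all genes). KLF4 was at 67.2 CPM in WT clone 2 and at 3.84, 3.14 and 4.77 CPM in the other libraries of the comparison. BMP2, a bone morphogenetic protein, was the 1 DEG of 37 TGF-beta and BMP genes (2.7%). It had 226 reads in WT clone 2, 11 in WT clone 11 and 0 and 1 in OGG1 clones 1 and 22. WNT pathway and Notch pathway genes held 0 DEGs of 37 and of 21.

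CDH3, the gene of P-cadherin (chr16:68636189-68727468), was at 22.8 and 12.1 CPM in OGG1 clones 1 and 22 and at 2.54 and 1.95 CPM in WT clones 11 and 2, a log2 fold change of 2.96 ± 1.03. It was the 1 DEG of 8 classical cadherins (12.5% beside 1.67% of all genes). It was no longer called without OGG1 clone 1, WT clone 11 or WT clone 2, with log2 fold changes from 2.43 to 3.16. Of 46 collagens, laminins and related genes 1 rose (2.17% beside 0.811% of all genes), FBLN2, a fibulin of the basement membrane. It held 15 and 16 reads in OGG1 clones 1 and 22 and 5 and 2 in WT clones 11 and 2. The median of this list was 0.21 and positive in both pairs, at 0.35 in clone 1 and 0.32 in clone 22, with 21 members higher and 8 lower in both. Over all genes tested, 4820 were higher and 4749 lower in both pairs.

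YAP target genes held 2 DEGs of 14, both higher (14.3% of the list beside 0.811% of all genes). The medians were 0 in clone 1 against WT clone 11 and 0.46 in clone 22 against WT clone 2, with 7 members higher and 5 lower in both pairs. Neither DEG was called without WT clone 2 or without OGG1 clone 22. AXL, a receptor tyrosine kinase, was at 2.83 and 3.58 CPM in the knockout and 1.56 and 0.932 CPM in WT. ANKRD1, a nuclear ankyrin repeat protein, was at 1.46 and 1.73 CPM against 0.579 and 0.0887 CPM. CCN1, a matricellular protein, was at 296 and 228 CPM in the knockout against 214 and 26.5 CPM in WT clones 11 and 2, and did not pass the test. Hence WT clone 2 was the lowest library in all 3.

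TMSB4X, TPM2 and POSTN lie outside the rule and were chosen after their values were seen, because they rose. TMSB4X, the actin-binding thymosin, was at 292 and 519 CPM in OGG1 clones 1 and 22 against 221 and 130 CPM in WT clones 11 and 2. TPM2, a tropomyosin, was at 47.5 and 19.1 CPM against 13.1 and 9.1 CPM. POSTN, the matrix protein periostin, was at 14.8 and 3.45 CPM against 1.38 and 0.133 CPM. In POSTN and TPM2 the higher knockout clone was clone 1, and in TMSB4X it was clone 22. TMSB4X, TPM2 and POSTN were no longer called without WT clone 2.

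APOE, the apolipoprotein E gene, was chosen in the same way and rose with a wide spread between clones. It was at 113 CPM in clone 1 and 26.7 CPM in clone 22, against 15.1 and 5.68 CPM in WT clones 11 and 2. Within the pairs its differences were alike, at log2 2.90 and 2.22, but it was no longer called without WT clone 2. The MUTYH knockout clones were at 82.5 and 9.03 CPM, 1 within the range of each group.

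Neighbouring APOBEC3 genes on chromosome 22, which code for cytidine deaminases, were higher together and were likewise chosen after their values were seen. APOBEC3C (chr22:39014257-39020352), the most abundant, was at 22.6 and 27 CPM in the knockout and 9.71 and 8.39 CPM in WT, a log2 fold change of 1.45 ± 0.46. APOBEC3F, APOBEC3G and APOBEC3B also rose, at log2 1.08 ± 0.37, 2.55 ± 0.83 and 1.99 ± 0.85. Neither these nor APOBEC3C were called without WT clone 2. APOBEC3A did not pass, with 18 and 9 reads against 7 and 0. The genes of this cluster are close paralogs, and reads that fit more than 1 of them may have been split. APOBEC3C was at 32.2 and 39.8 CPM in the MUTYH knockout clones, above both OGG1 knockout clones.

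The remaining DEGs of the lists were few. Of 435 genes named ZNF 2 rose and 1 fell, 0.69% beside 1.67% of all genes. Of 13 hypoxia targets 1 rose (7.69%), EGLN3, a prolyl hydroxylase that acts on HIF, at 26.6 and 43.4 CPM against 21.6 and 11.3 CPM. Of 229 solute carriers 2 rose and 3 fell, 2.18% beside 1.67% of all genes. Without WT clone 11, 6 of them were called higher, and the lower count ranged from 1 to 8 over the settings tried. SLC26A7, an anion transporter and the clearest of them, had 15 and 5 reads in OGG1 clones 1 and 22 and 40 and 151 in WT clones 11 and 2, and was called whichever library was left out.

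Of the 53 gene lists, 37 held no DEG. These included the large house-keeping lists, in which the pairs often disagreed. The 83 cytosolic ribosomal protein genes had a median of -0.047 in clone 1 against WT clone 11 and 0.35 in clone 22 against WT clone 2, and 69 of them went opposite ways. The 13 mitochondrially encoded mRNAs had medians of 0.38 and -0.22. The share of mitochondrial counts moved likewise, being higher than WT in OGG1 clone 1 and lower in OGG1 clone 22. That share includes the reads of these 13 mRNAs, so it is not a separate measure.

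The 75 nuclear-encoded respiratory chain genes had medians of -0.035 and 0.20 in the pairs. Cholesterol synthesis genes had medians of 0.058 and -0.47, and protocadherins 0.26 and -0.68. Splicing factors were lower in both pairs, at -0.081 and -0.068, with 34 of 63 lower and 5 higher in both, yet 0 were DEGs. Genes of DNA replication and mitosis also held 0 DEGs of 38 and of 25, and MKI67, the proliferation marker, was at 958 and 551 CPM in the knockout and 991 and 751 CPM in WT.

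**Figure D3:**
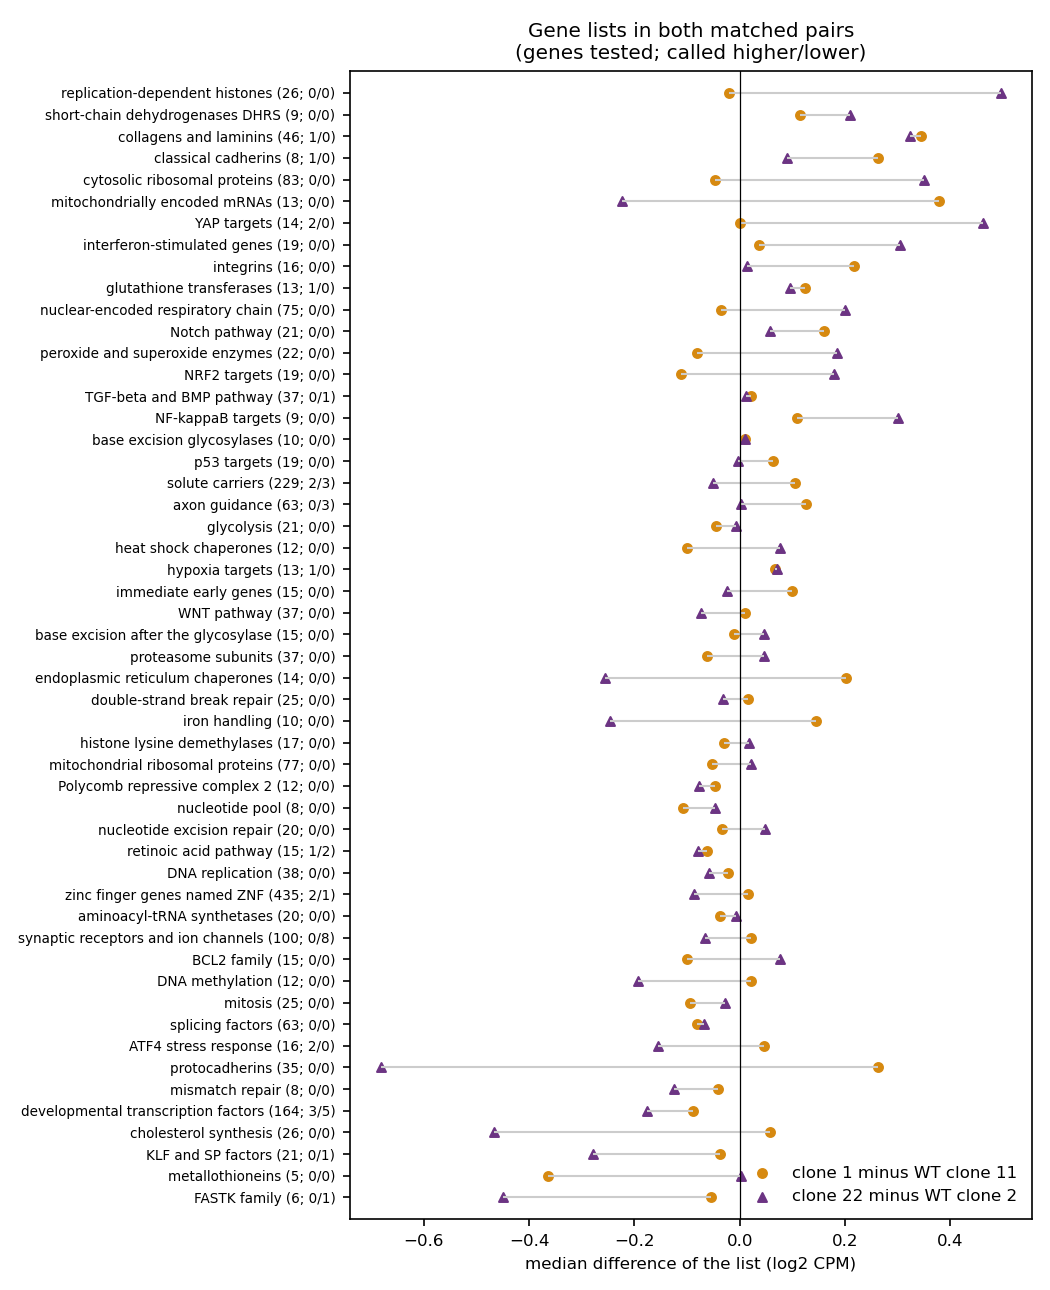
Median log2 CPM difference of 52 gene lists with at least 5 tested genes in each matched pair, circles for OGG1 clone 1 minus WT clone 11 and triangles for clone 22 minus WT clone 2, ordered by the median log2 fold change. After each name stand the number of genes tested and the DEGs higher and lower. Collagens and laminins are above 0 in both pairs, developmental transcription factors below 0 in both, and protocadherins, cholesterol synthesis and mitochondrially encoded mRNAs lie on opposite sides.

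Across gene classes, DEGs were concentrated at low levels. The 2 lowest of 5 equal classes by mean CPM held 248 of the 299 DEGs, and the highest class held 1, TMSB4X. Protein-coding genes were DEGs in 1.64%, lncRNA genes in 2.21% and pseudogenes in 0.83% of those tested. The longest class of protein-coding genes by exon length held 17 higher and 44 lower DEGs, and the shortest held 24 higher and 15 lower.

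GC content went with the direction of small changes in both pairs. In the protein-coding genes of the lowest GC class the median difference was -0.069 in clone 1 and -0.050 in clone 22, and in the highest class 0.084 and 0.038. In the lowest class 419 genes were higher and 1077 lower in both pairs, and in the highest 1038 were higher and 438 lower. DEGs followed the same order, with 7 higher and 33 lower in the lowest class and 31 higher and 13 lower in the highest.

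Genes of chromosome 1 beyond 150 Mb differed together in 1 pair. The 606 tested genes had a median difference of -0.27 in clone 22 against WT clone 2 and -0.0080 in clone 1 against WT clone 11. Relative to the mean of the 8 untreated libraries, the median gene there was 0.25 higher in WT clone 2, whereas the other libraries lay between -0.059 and 0.0070. The rest of chromosome 1 was at -0.016 in WT clone 2. Of the 606 genes beyond 150 Mb 9 were called higher and 6 lower, beside 10 and 5 of the 967 genes up to there. CRABP2 and S100A16 were among those higher beyond 150 Mb, and KCNK1, KCNK2, CHRM3 and RYR2 among those lower. RYR2, a calcium release channel chosen after its values were seen, was at 2.19 and 1.15 CPM in the knockout against 4.77 and 40.9 CPM in WT clones 11 and 2. The part of this shift in their change was not tested.

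**Figure D4:**
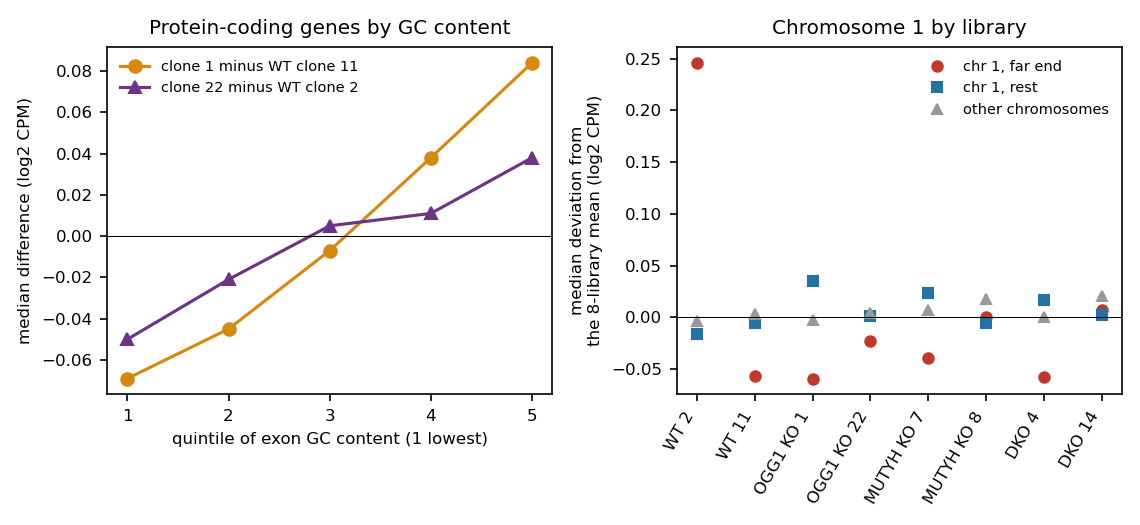
Left, median log2 CPM difference of protein-coding genes by quintile of exon GC content in each matched pair, rising from quintile 1 to 5 in both. Right, median deviation in log2 CPM from the mean of the 8 untreated libraries for genes of chromosome 1 beyond 150 Mb (circles), the rest of chromosome 1 (squares) and other chromosomes (triangles), with WT clone 2 at 0.25 for the first set.

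Most markers of blood cells were at or near 0, although the line is of leukaemic origin. Of 13 haematopoietic markers 8 had at most 3 reads in each of the 4 libraries, and PTPRC, SPI1 and MPO were among them. KIT, the stem cell factor receptor, fell from 12.1 and 11.6 CPM to 2.01 and 3.67 CPM, and CD34 rose from 4 and 3 reads to 9 and 23. KRT8, an epithelial keratin, rose from 17.6 and 8.47 CPM to 37.8 and 45.2 CPM, with CDH1 and KRT19 at 2 reads or fewer. The summed level of the 8 epithelial markers was 72.8 and 102 CPM in OGG1 clones 1 and 22 and 53.3 CPM in WT clone 11, with WT clone 2 the lowest. That of the 9 mesenchymal markers was 489 CPM in both knockout clones against 449 and 245 CPM, with 0 DEGs. KRT8 is itself part of the epithelial sum, and it was no longer called without WT clone 2. KRT18, the other abundant epithelial marker, was at 33 and 53.9 CPM in OGG1 clones 1 and 22. In WT clones 11 and 2 KRT18 was at 34.6 and 27.4 CPM. The sum of the 7 neural markers was 1426 and 1681 CPM in OGG1 clones 1 and 22 and 1235 and 1257 CPM in WT clones 11 and 2, most of it from SOX2, with PAX6 the 1 DEG among them. That of the 5 pluripotent markers was 1225 and 1273 CPM against 888 and 1180.1 CPM, with 0 DEGs and with ZFP42 at 0 reads. Endothelial markers were at or near 0, with 4 of 5 at 3 reads or fewer throughout.

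Whether the called genes differed the same way when MUTYH was also missing was read from DKO minus MUTYH knockout, which shares no library with the comparison above. Since the DKO clones descend from an OGG1 knockout line, lack of OGG1 and shared descent cannot be told apart in it. Over all genes 1.49% were called higher and 0.492% lower in the DKO. Of the 145 genes higher in the OGG1 knockout, 106 (73.1%) were higher in the DKO than in the MUTYH knockout, beside 48.8% of all genes, and 24 were DEGs in the same direction and 4 in the opposite. Of the 154 lower genes 64 (41.6%) were lower, beside 51.2% of all genes, and 12 were DEGs in the same direction and 11 in the opposite.

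FRMD4A, MGMT, SLIT3 and PTPRN2 were among the 12 lower in both comparisons. FRMD4A was at 8.94 and 12.9 CPM in MUTYH knockout clones 7 and 8 and 1.04 and 1.14 CPM in DKO clones 4 and 14, a log2 fold change of -3.32 ± 0.31. GDF15, INHBE, POSTN, HOXD10, PITX3 and CD34 were among the 24 higher in both. GDF15 was at 0.558 and 0.484 CPM in the MUTYH knockout and 6.44 and 4.44 CPM in the DKO, a log2 fold change of 3.37 ± 0.40. EPHA6 went the other way, from 0.605 and 0.704 CPM to 3.54 and 2.51 CPM. The test of the difference between the effects of OGG1 loss with and without MUTYH gave 1 gene past the adjusted threshold in edgeR, which is none of those named here. It gave 358 genes by the DEG rule.

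**Figure D5:**
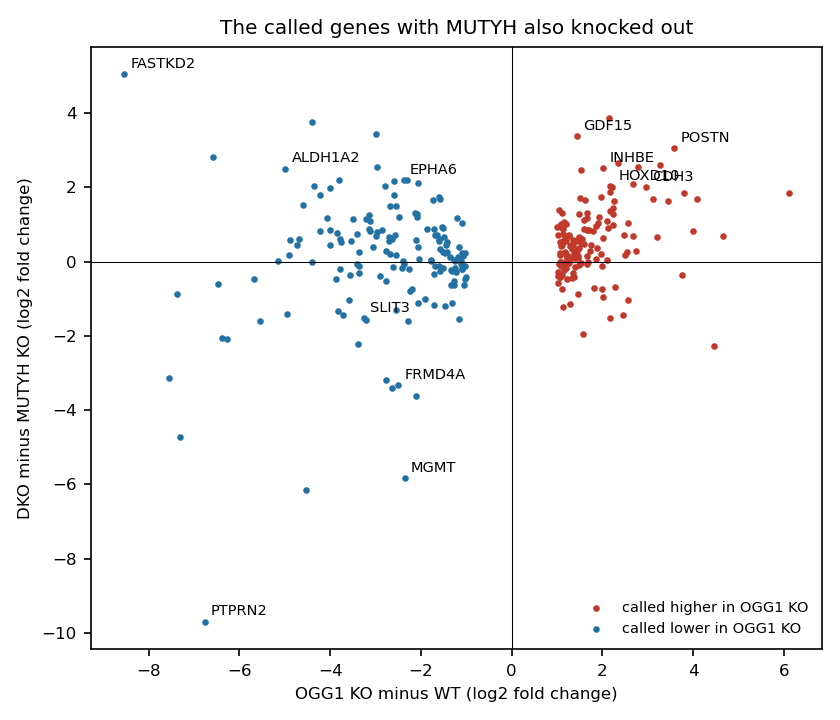
Log2 fold change of each DEG in OGG1 knockout minus WT (horizontal) and in DKO minus MUTYH knockout (vertical), red for the 145 called higher and blue for the 154 called lower. Most red points lie above 0 on the vertical axis, while blue points lie on both sides of 0, with PTPRN2, MGMT and FRMD4A far below.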

How the data were processed

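RNA of untreated HAP1 clones was sequenced on the DNBseq platform. The authors deposited a table of read counts per gene, made with Hisat2 2.2.1 on GRCh38 and featureCounts. How strand and reads with several alignments were handled is not given in the sources used here, so overlapping, antisense and paralogous genes are uncertain. Of the 299 DEGs, 251 had a position and 148 of these overlapped a gene on the opposite strand. The share over all genes tested was not counted, so this number does not set the DEGs apart.

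Tests ran in edgeR 4.0.16 (R 4.3.3): TMM factors, filterByExpr, and the quasi-likelihood F test (legacy=TRUE, two-sided), in 1 fit of the 8 untreated libraries of 4 genotypes with 4 residual degrees of freedom. A DEG passed both P of 0.05, unadjusted, and log2 1 in size, the study's criterion. Log2 CPM used a prior count of 2. P values measure the spread between clones, pooled over the 4 genotypes with 2 clones each. The 2 DKO clones share 1 OGG1 knockout parent line. No 2 libraries agreed within counting error (smallest chi-square per degree of freedom 12.2). Counting errors cover counting error only.

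The pairs come from a split of the 8 libraries into 2 sets. Within each genotype the difference between the sets correlated with that of every other genotype (r = 0.22 to 0.446 across genes), though the labels name no such batch. Since the split came from earlier results of these data, this correlation is no independent check of it. OGG1 clone 22 correlated with WT clone 2 at r = 0.967 and with WT clone 11 at r = 0.974. Its chi-square per degree of freedom was 38.1 against WT clone 2 and 58.9 against WT clone 11. Gene positions, GC content and exon length came from GENCODE v44 on GRCh38, matched for 38434 genes by symbol and 397 by an older symbol. Named genes were OGG1, the 12 higher and 12 lower DEGs with the smallest P among those of at least 1 CPM in either group and beyond 0.5 (log2 CPM) the same way in both pairs, DEGs of a list, and the 2 tested genes of each list with the highest mean CPM in WT. The libraries, lists and rule were chosen with earlier results of these data known. Alternatives were a block for the library set, fits of the 4 libraries alone, DESeq2 1.42.0 size factors and Wald test, the legacy=FALSE fit of edgeR, all genes without a filter, only genes with at least 10 counts throughout, and leaving out each library. The treated libraries were not used. Of the 24 leading genes, 1 is not reported here.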

Additional observations from a re-analysis of the deposited data

How the results depend on the processing

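The 299 DEGs became 435 with the library set as a replicate block (226 higher and 209 lower, 282 of them shared), 302 in a fit of the 4 libraries, 467 in that fit with the matched pair as a block (1 residual degree of freedom), 298 with DESeq2 size factors, 330 with legacy=FALSE, 692 without a filter (34824 genes tested), 123 with at least 10 counts in every library (15068 genes tested) and 306 in the DESeq2 Wald test. Leaving out 1 library gave 139 (without WT clone 2) to 671 (without WT clone 11), with 550 without OGG1 clone 1 and 205 without OGG1 clone 22. The lone sample left in a group was assumed to vary like the other groups. Higher genes made up 48.5% of the DEGs, 39.9% in the Wald test and 57.8% without WT clone 11. The median log2 fold change of all genes stayed within -0.014 to 0.026. Of 89 named DEGs, 87 were called with the block, 85 in the Wald test and 89 with DESeq2 size factors. The 1 reversal was GABRB2, at log2 0.31 without WT clone 2 and -5.03 without OGG1 clone 22. The cause of these differences was not tested. For the DKO and MUTYH knockout, DEGs in the same direction numbered 36, and 40 with the library set as a block. The depth limits genes under 1 CPM, where 63 of the DEGs lie.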

Other observations

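When only the 4 libraries were fitted with the matched pair as a term, 24 genes passed the adjusted threshold of 0.05 in edgeR, 8 higher and 16 lower in the OGG1 knockout. That fit leaves 1 residual degree of freedom, and the pairing is not in the labels. Of the 24 genes 19 were DEGs in the fit of 8 libraries. The other 5 were not, and values of 4 of them follow.

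LPL, the lipoprotein lipase gene, had 1 read in OGG1 clone 1 and 16 in WT clone 11, and 26 in OGG1 clone 22 and 589 in WT clone 2. SNTB1, a syntrophin of the dystrophin complex, was at 0.913 CPM against 6.15 CPM in the first of these pairs and 2.79 CPM against 17.4 CPM in the second. IGDCC3, an immunoglobulin superfamily protein, was higher in the knockout of each pair, by log2 1.06 and 1.31. COL5A2, a fibrillar collagen, was higher by log2 1.49 and 2.70.

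LIN28A, an RNA-binding protein of pluripotent cells chosen after its values were seen, had the same level in both OGG1 knockout clones, with 3093 and 3188 reads. The WT clones held 559 and 30 reads, and the MUTYH knockout clones 83.6 and 2.16 CPM. It was not a DEG, with a log2 fold change of 3.43 ± 1.58, and passed with the library set as a block (log2 4.15). Its paralog LIN28B was at 78.1 and 92.4 CPM in the knockout and 71.1 and 76.1 CPM in WT.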
